A study of Mus musculus with 14 samples.

Results

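Complement is a cascade of secreted proteins that tag cells and debris for removal and that call in immune cells. The 8 genes described here encode the 3 chains of C1q (C1qa, C1qb and C1qc), the components C4 (C4b) and C3 (C3), the receptors for the fragments C3a and C5a (C3ar1 and C5ar1) and C1 inhibitor (Serping1). They were taken by symbol from the 13866 genes of the deposited count table, in which 8 of 8 were listed, and 8 of 8 passed the filter that left 11852 genes for testing. C3, C3ar1 and C5ar1 had fewer than 10 counts in every library of both PBS groups and passed because of the CBE groups, so the number that passed is no support for a difference.

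The libraries were made from mouse brain at 19 days of age, 14 in all. WT mice (C57BL/6JOlaHsd) received PBS (WT + PBS, 3 libraries) or conduritol B-epoxide (WT + CBE, 3 libraries), and MyTrMaSt null mice received PBS (MyTrMaSt + PBS, 3 libraries) or CBE (MyTrMaSt + CBE, 5 libraries). CBE blocks glucocerebrosidase, the lysosomal enzyme lost in Gaucher disease, by binding it permanently. It was injected daily at 100 mg/kg from day 8, so enzyme activity is lost in the whole animal and not in 1 cell type. MyTrMaSt null mice lack Myd88, Ticam1 (TRIF), Mavs and Tmem173 (STING), adaptors through which Toll-like, RIG-I-like and DNA-sensing receptors signal, and are constitutive knockouts, so every cell type of the brain is affected. Libraries held 1290616 to 3704691 counts of transcript 3′ ends, and a level is given below as CPM, the count of a gene relative to the scaled size of its library. Where CPM of every library are given, they follow the order of the replicate numbers. Of the 4 deleted genes, Myd88 was lower in MyTrMaSt after CBE (log2 -1.77, adjusted p 0.000294) by the edgeR test described below. With PBS its difference was -1.66 (adjusted p 0.0603) and did not pass, and Ticam1, Mavs and Tmem173 did not pass between the genotypes under either treatment. The counted 3′ ends can lie outside the deleted parts, so these levels do not check the genotype. WT + PBS replicate 1 had the lowest total and stood apart in microglia genes: P2ry12, a gene of resting microglia, had 2.71 CPM there and 30.1 and 34.6 CPM in the other WT + PBS libraries, while C1qa was highest there. Over all genes its counts gave a chi-square per degree of freedom of 22.4 and 20.3 against replicates 2 and 3, where those 2 gave 3.75 and pairs within the other groups 2.45 to 7.80. It had 12847 genes detected, the fewest, and a TMM factor of 0.861, the lowest. The libraries of a group differed from one another by more than sampling noise, and p-values measure the spread between mice as the study describes them.

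In the brain, C1q is made mainly by microglia, C4 and C3 can be made by glia of more than 1 kind, and both anaphylatoxin receptors sit mostly on myeloid cells. C1q bound to a surface activates the proteases C1r and C1s, which cleave C4 and C2 to form the enzyme that cleaves C3, and this route is the classical pathway. In the alternative pathway, factor B (Cfb) pairs with C3b to make another C3-cleaving enzyme. C1 inhibitor stops C1r and C1s, and fragments of C3 on a surface are read by the integrins CR3 (Itgam with Itgb2) and CR4 (Itgax with Itgb2). In developing brain, C1q and C3 are known for tagging synapses that microglia then remove.

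All 8 genes lie on the minus strand of GRCm38 (GENCODE M21), and no exon of another annotated gene overlaps their exons. C1qb (chr4:136880129-136886187), C1qc (chr4:136889804-136893065) and C1qa (chr4:136895917-136898803) stand in a row within 18675 bases, with gaps of 3616 and 2851 bases between them. C3 is at chr17:57203970-57228136 and C4b at chr17:34728380-34743882. C3ar1 is at chr6:122847138-122856161, C5ar1 at chr7:16246743-16259540 and Serping1 at chr2:84765387-84775444. C4b has a close copy, C4a, which is not listed in the count table. The last 500 bases of their longest transcripts are 98% identical (489 of 499 aligned bases), so reads that fit both genes could have been lost or assigned to C4b, and the level of C4b is uncertain in this respect.

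RefSeq promoter sequence (GRCm38.p6) was matched for 5 of the 8 genes (C1qb, C1qc, C3, C3ar1 and C5ar1). The 250 bases before the start of transcription are printed for 3 of them because of the results that follow: C1qb and C1qc rose with CBE in both genotypes, and C3 rose in WT and did not pass the test in MyTrMaSt null mice. Capitals mark matches, on either strand, to the motifs searched. All 3 stretches are written 5′ to 3′ along the gene (minus strand). The larger part of that of C1qc lies inside the longer GENCODE gene model. They lie at chr4:136886201-136886450 for C1qb, chr4:136892915-136893164 for C1qc and chr17:57228137-57228386 for C3.
C1qb: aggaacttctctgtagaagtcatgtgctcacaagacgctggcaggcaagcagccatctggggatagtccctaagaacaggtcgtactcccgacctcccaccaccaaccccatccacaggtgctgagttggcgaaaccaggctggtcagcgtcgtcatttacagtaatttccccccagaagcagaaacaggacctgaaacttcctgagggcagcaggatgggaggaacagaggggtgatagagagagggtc
C1qc: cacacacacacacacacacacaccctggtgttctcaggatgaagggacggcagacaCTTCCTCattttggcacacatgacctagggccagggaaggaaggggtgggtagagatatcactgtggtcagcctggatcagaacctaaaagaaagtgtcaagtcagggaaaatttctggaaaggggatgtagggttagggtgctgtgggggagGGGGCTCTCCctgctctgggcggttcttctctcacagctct
C3: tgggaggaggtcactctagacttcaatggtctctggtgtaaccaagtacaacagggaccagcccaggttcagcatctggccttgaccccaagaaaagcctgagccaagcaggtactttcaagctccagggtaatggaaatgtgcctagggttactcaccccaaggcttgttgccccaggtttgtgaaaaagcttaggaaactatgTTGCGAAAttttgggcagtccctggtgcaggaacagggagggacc

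The motifs searched were the interferon-stimulated response element core (GAAA repeated after a spacer of 2 bases), the STAT site TTCNNNGAA, the NF-kappaB site, the C/EBP site TTGCNNAA, the PU.1 site GAGGAAG and the palindromic E-box TCACGTGA of lysosomal gene promoters. The capitals in C1qc are 1 PU.1 match at bases -194 to -188 and 1 NF-kappaB match at bases -41 to -32 from the start. The NF-kappaB match lies inside the longer GENCODE gene model, and the PU.1 match lies before it. The capitals in C3 are 1 C/EBP match at bases -45 to -38. No match was found in the stretches of C1qb, C3ar1 and C5ar1. Of 32851 promoters of the same length, 10.612% hold the PU.1 letters, 3.899% the NF-kappaB letters, 9.564% the C/EBP letters, 2.977% the response element core, 7.02% the STAT letters and 0.785% the E-box. A match describes the letters only and was not tied to any factor here.

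CBE raised all 8 genes in WT brain. Genes were tested on the counts with edgeR's quasi-likelihood F test in 1 model of the 4 groups, and a gene was called where the Benjamini-Hochberg adjusted p over all tested genes was below 0.05 and the change at least 2-fold. In WT + CBE versus WT + PBS, 8 of 8 were called higher, where 5.2% of all tested genes were. The WT + CBE libraries all lay above the WT + PBS libraries for 8 of 8, where this held for 15.1% of all tested genes. In MyTrMaSt + CBE versus MyTrMaSt + PBS, 7 of 8 were called higher, against 3.23% of all tested genes, and C3 was the exception. The same 7 did not overlap, against 11.8% of all tested genes. In MyTrMaSt + CBE versus WT + CBE, 6 of 8 were called lower, against 1.93% of all tested genes. The exceptions there were C1qb, which was 1.87-fold lower, and C5ar1. For 7 of 8 all MyTrMaSt + CBE libraries lay below those of WT + CBE, against 6.02% of all tested genes. With PBS, 0 of 8 were called between the genotypes by edgeR (0.16% of all tested genes), although 5 of 8 had an unadjusted p below 0.05 (16.8% of all tested genes). DESeq2 and limma-voom also called 0 there. Without WT + PBS replicate 1, 8 were called in WT, 8 in MyTrMaSt, 6 between the CBE groups and 0 between the PBS groups. Over the 8 genes, the median change on the log2 scale was 2.90 in WT, 2.37 in MyTrMaSt, -1.12 between the CBE groups and -0.43 between the PBS groups, while the median over all tested genes lay between -0.02 and 0.02 in each. Each group enters 2 of these comparisons, which are therefore not independent of one another. C3, C3ar1 and C5ar1 passed the filter through the CBE groups, and the 8 genes were chosen with earlier results of these data known. Counts and medians over the 8 genes, here and for the interaction below, describe them and are no support for a difference of the list.

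**Figure D1:**
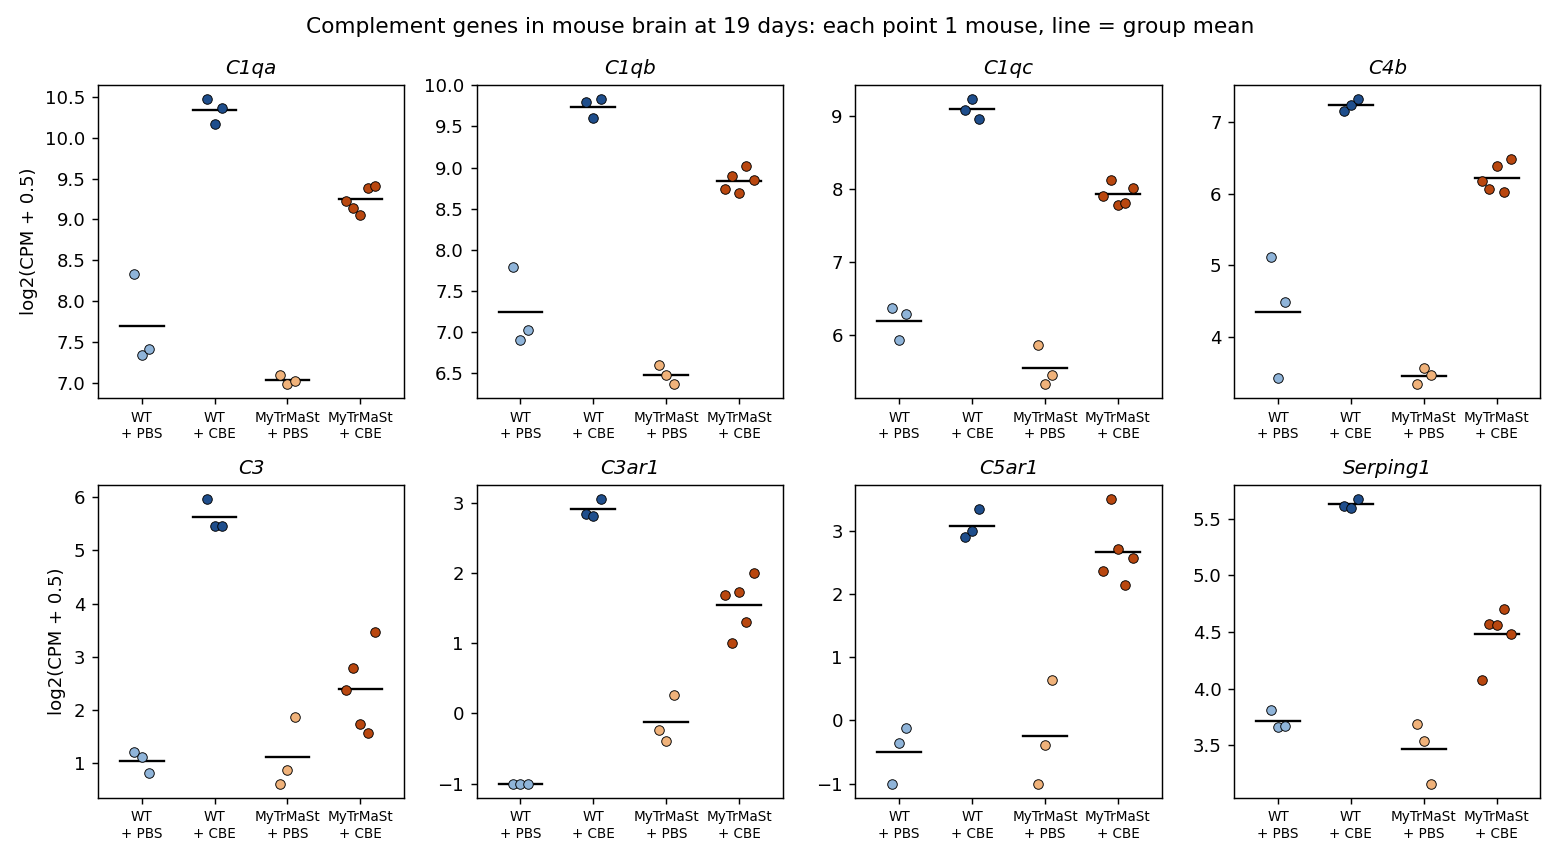
Level of each of the 8 genes as log2(CPM + 0.5) on the vertical axis (each panel has its own scale), with 1 point for each library and a line at the group mean, for both treatments and both genotypes. In 7 panels the MyTrMaSt + CBE points lie below the WT + CBE points and in 7 they lie above the MyTrMaSt + PBS points; the C5ar1 and C3 panels are the respective exceptions.

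The C1q chains form the recognition molecule of the classical pathway and need one another to assemble. C1qa had 322, 163 and 171 CPM in the WT + PBS libraries 1, 2 and 3, and 1416, 1149 and 1317 CPM in the WT + CBE libraries. It had 137, 127 and 130 CPM in MyTrMaSt + PBS, and 598, 566, 532, 670 and 677 CPM in MyTrMaSt + CBE. The groups do not overlap in any of the comparisons, and the 1 high PBS value is that of WT + PBS replicate 1. Without that library the log2 fold change in WT was 2.96, and without replicate 2 it was 2.41. C1qa was 5.98-fold higher with CBE in WT (log2 fold change 2.58, SE 0.21, edgeR adjusted p 1.34e-07) and 4.63-fold higher in MyTrMaSt (2.21, SE 0.20, adjusted p 1.08e-06). After CBE its mean in MyTrMaSt was 47.0% of that in WT (-1.09, SE 0.17, adjusted p 0.000758).

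C1qb stood at 222, 119 and 130 CPM with PBS in WT and at 885, 777 and 910 CPM with CBE. In MyTrMaSt it had 96.3, 89.0 and 82.4 CPM with PBS and 426, 475, 413, 518 and 460 CPM with CBE. Again no groups overlap, and the highest PBS value is that of the same library. The change with CBE was 5.54-fold in WT (log2 2.47, SE 0.20, edgeR adjusted p 8.56e-08) and 5.13-fold in MyTrMaSt (2.36, SE 0.19, adjusted p 2.19e-07). Without WT + PBS replicate 1 the log2 fold change in WT was 2.79, and without replicate 2 it was 2.31, so the near-equality of the 2 changes rests on replicate 1. The 2 CBE groups differed by -0.90 on the log2 scale (SE 0.16, adjusted p 0.00217), which passes the p threshold and misses 2-fold.

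C1qc stood at 82.1, 60.5 and 77.6 CPM with PBS in WT and at 538, 597 and 495 CPM with CBE. MyTrMaSt libraries had 57.7, 39.9 and 43.3 CPM with PBS and 238, 277, 218, 224 and 258 CPM with CBE. WT + PBS replicate 1 is not apart for this chain. C1qc was 7.47-fold higher with CBE in WT (log2 2.90, SE 0.18, edgeR adjusted p 4.05e-09) and 5.19-fold higher in MyTrMaSt (2.37, SE 0.16, adjusted p 4.71e-08). After CBE its mean in MyTrMaSt was 44.7% of that in WT (-1.16, SE 0.14, adjusted p 3.11e-05).

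The proportions of the 3 chains were similar in the 4 groups. For each 100 CPM of C1qa, C1qb had 72.6 ± 3.51 with PBS and 66.4 ± 3.47 with CBE in WT (SD, n = 3 each), and 67.9 ± 4.05 with PBS (SD, n = 3) and 75.6 ± 6.20 with CBE (SD, n = 5) in MyTrMaSt. In the same order the values for C1qc were 36.0 ± 9.97, 42.5 ± 8.20, 35.6 ± 5.76 and 40.3 ± 5.64. For both ratios the ranges of single libraries overlap between all 4 groups, and no test of the proportions was made. In the deviations of the 14 libraries from their group means, C1qa and C1qb had a Pearson r of 0.94 and C1qa and C1qc one of 0.35. The points share each library's depth and scaling. WT + PBS replicate 1, far above its group for both C1qa and C1qb, weighs on the first value, so both values are a description.

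With PBS all 3 chains were lower in MyTrMaSt, with no overlap of the libraries, a separation that 10.1% of all tested genes showed in this direction. The log2 differences were -0.72 for C1qa, -0.79 for C1qb and -0.63 for C1qc, with edgeR adjusted p values of 0.139, 0.101 and 0.130. Without WT + PBS replicate 1 the differences were -0.35, -0.49 and -0.56, and without replicate 2 they were -0.90, -0.97 and -0.77 (adjusted p 0.0300, 0.0211 and 0.0348), which passes the p threshold and misses 2-fold. DESeq2 also gave adjusted p values below the threshold (0.0467, 0.0139 and 0.0369) with changes under 2-fold. Trem2, a microglia receptor gene, was the 1 of 14 microglia genes called lower there (-1.29, adjusted p 0.0114). Of all tested genes, 0.16% were called there in either direction. Xist, transcribed in female cells, had 0 counts in 3 of 3 WT + PBS libraries and 32 to 46 in the MyTrMaSt + PBS libraries, so sex and genotype cannot be told apart between the PBS groups. With CBE it had 47, 1 and 30 counts in WT and 0 to 39 in MyTrMaSt, so sex was also unbalanced between WT + CBE and WT + PBS and enters the interaction. With the Xist level as a covariate 0 of 8 genes were called between the PBS groups, 8 in WT, 7 in MyTrMaSt, 6 between the CBE groups and 0 for the interaction.

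C4b encodes C4, the component that C1 cleaves first. C4b stood at 34.3, 10.2 and 21.9 CPM with PBS in WT and at 142, 150 and 160 CPM with CBE. In MyTrMaSt it had 9.67, 11.4 and 10.6 CPM with PBS and 71.7, 66.8, 83.5, 64.5 and 88.9 CPM with CBE. The CBE groups do not overlap with each other or with the PBS groups, while the PBS groups overlap. C4b rose 7.46-fold in WT (log2 2.90, SE 0.28, edgeR adjusted p 8.48e-07) and 7.08-fold in MyTrMaSt (2.82, SE 0.27, adjusted p 2.06e-06). Its mean in MyTrMaSt + CBE was 49.8% of that in WT + CBE (log2 -1.0, SE 0.21, adjusted p 0.0101), a difference at the 2-fold threshold. With each of the 14 libraries left out in turn it was -1.08 to -0.95, and it was no longer called without WT + CBE replicate 2 or 3 or MyTrMaSt + CBE replicate 1, 2 or 4. When only the CBE groups were fitted, it also fell just short of 2-fold and was not called (adjusted p 4.91e-05). Without WT + PBS replicate 1 the change in WT was 3.30, and without replicate 2 it was 2.48. With PBS the log2 difference was -0.93 (adjusted p 0.169). It was -1.36 (adjusted p 0.0136) without WT + PBS replicate 2, the lowest of its group, and -0.54 (adjusted p 0.463) without replicate 1, the highest.

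C3 encodes the component on which all routes of the cascade converge. It stood at 1.80, 1.66 and 1.27 CPM with PBS in WT and at 62.0, 43.2 and 43.4 CPM with CBE. In MyTrMaSt it had 1.04, 1.32 and 3.17 CPM with PBS and 4.68, 6.38, 2.84, 2.46 and 10.6 CPM with CBE. WT + CBE stands apart from every other library, and the 2 MyTrMaSt groups overlap. These CPM rest on 2 to 9 counts in each PBS library, 72 to 213 with CBE in WT and 5 to 27 with CBE in MyTrMaSt. C3 rose 31.3-fold with CBE in WT (log2 4.97, SE 0.46, edgeR adjusted p 5.51e-07). In MyTrMaSt the fitted change was 3.0-fold (1.59, SE 0.48, adjusted p 0.0530) and was not called. DESeq2 called it (adjusted p 0.0207), as did edgeR without WT + PBS replicate 1 (adjusted p 0.0221), without MyTrMaSt + CBE replicate 3 (0.0379), without MyTrMaSt + CBE replicate 4 (0.0346) and when only the 2 MyTrMaSt groups were fitted (0.0477), and over the 14 libraries left out in turn its adjusted p ran from 0.0221 to 0.190.

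After CBE, C3 in MyTrMaSt was 9.03-fold lower than in WT (log2 -3.17, SE 0.31, adjusted p 1.66e-06), or 10.9% of the WT mean, and leaving out any 1 of the 14 libraries gave -3.58 to -2.98. The interaction, the change with CBE in MyTrMaSt minus that in WT, tests whether the 2 responses differ. For C3 it was -3.38 on the log2 scale (SE 0.78, 95% confidence interval -5.02 to -1.74), with an unadjusted p of 0.000422 and an edgeR adjusted p of 0.0705. It passed 0.05 by DESeq2 (adjusted p 0.00169) and in edgeR without WT + PBS replicate 1 (-3.43, adjusted p 0.0420) or without MyTrMaSt + CBE replicate 5 (-3.78, adjusted p 0.0146). It was -2.81 (adjusted p 0.459) without MyTrMaSt + PBS replicate 3 and -2.90 (adjusted p 0.356) with the Xist level as a covariate, so the call depends on the tool and on single libraries.

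By edgeR the interaction was called for 0 of the 8 genes, where 0.489% of all tested genes were called. At an unadjusted p below 0.05 there were 4 of 8 (C1qc, C3, C3ar1 and Serping1), against 12.5% of all tested genes. DESeq2 called 1, C3, and limma-voom called 0. The log2 estimates were -0.37 for C1qa, -0.11 for C1qb, -0.53 for C1qc and -0.07 for C4b, with standard errors of 0.27, 0.25, 0.23 and 0.39. Without WT + PBS replicate 1 they were -0.75 for C1qa, which was then called (adjusted p 0.0292), -0.43 for C1qb (adjusted p 0.310), -0.61 for C1qc (adjusted p 0.248) and -0.47 for C4b (adjusted p 0.630). Without WT + PBS replicate 2 the estimate was 0.059 for C1qb (adjusted p 0.915) and 0.35 for C4b (adjusted p 0.522). The small estimate for C1qb thus depends on replicate 1 and that for C4b on both replicates. With all 14 libraries, for C4b the 95% confidence interval ran from -0.90 to 0.75, and for C1qb from -0.64 to 0.42, so differences within those bounds are not excluded. For C3ar1 the interaction had an unadjusted p of 0.00346 and an adjusted p of 0.199, and its estimate depends on a group with 0 counts.

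**Figure D2:**
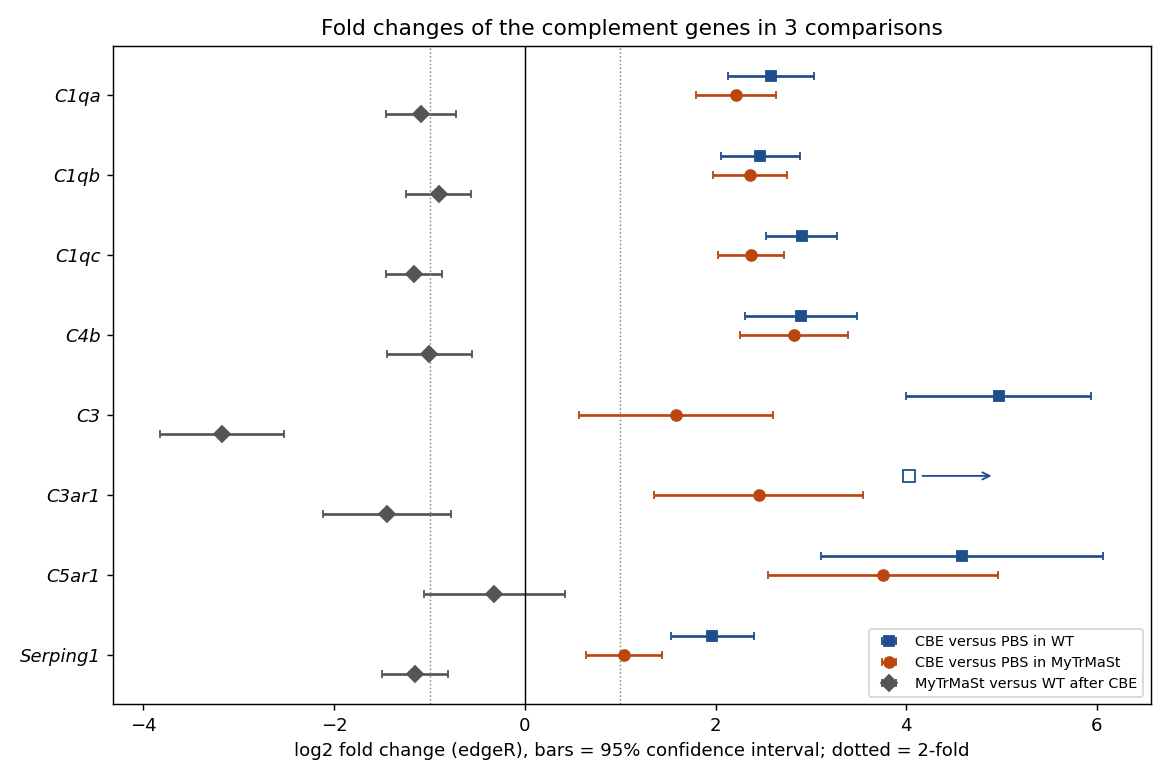
Log2 fold change from edgeR on the horizontal axis for each of the 8 genes, with 95% confidence intervals, for CBE versus PBS in WT (squares), CBE versus PBS in MyTrMaSt (circles) and MyTrMaSt versus WT after CBE (diamonds); the open square with an arrow is a lower bound for C3ar1, which had 0 counts in WT + PBS. The intervals of the 2 genotypes overlap for C1qa, C1qb, C1qc, C4b and C5ar1, and those of C3 (log2 4.97 and 1.59) and Serping1 (1.97 and 1.04) do not.

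The anaphylatoxin receptors were close to the detection limit with PBS. C3ar1, the receptor for C3a, had 0 counts in each of the 3 WT + PBS libraries and 23, 14 and 13 counts (6.69, 6.57 and 7.83 CPM) in WT + CBE. Against a floor of 3 counts over the group, its level in WT + CBE was 16.4-fold higher. The 95% exact counting interval for the 50 counts with CBE against 0 with PBS starts at 12.8-fold. In MyTrMaSt it had 1, 1 and 2 counts with PBS and 7, 4, 7, 4 and 9 counts with CBE (2.73, 1.50, 2.84, 1.97 and 3.52 CPM). The CBE libraries lie above the PBS libraries in each genotype, and those of MyTrMaSt lie below those of WT. The edgeR adjusted p was 1.09e-05 in WT and 0.00816 in MyTrMaSt. Summed over each group and scaled, the 31 counts with CBE in MyTrMaSt were 6.01 times the 4 with PBS (95% exact counting interval 2.12 to 23.4). Between the CBE groups it was 2.73-fold lower in MyTrMaSt (-1.45, SE 0.32, adjusted p 0.0177), a call that was lost without any 1 of the 3 WT + CBE libraries (adjusted p 0.0668 to 0.0938) or without MyTrMaSt + CBE replicate 2 (0.0520). The call in MyTrMaSt was lost without MyTrMaSt + PBS replicate 2 (0.0606). With PBS there were 4 counts in MyTrMaSt and 0 in WT, too few for a fold (adjusted p 0.263).

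C5ar1, the receptor for C5a, had 0, 1 and 1 counts in WT + PBS and 24, 16 and 16 counts (6.98, 7.51 and 9.64 CPM) in WT + CBE. In MyTrMaSt it had 0, 1 and 3 counts with PBS and 12, 29, 15, 8 and 14 counts (4.68, 10.9, 6.08, 3.94 and 5.48 CPM) with CBE. The CBE libraries lie above the PBS libraries in both genotypes, and the 2 CBE groups overlap, with the highest value of all in MyTrMaSt + CBE replicate 2. Summed over each group and scaled, the counts with CBE were 27.5 times those with PBS in WT (95% exact counting interval 7.27 to 233) and 15.1 times in MyTrMaSt (5.67 to 56.9), intervals that cover counting error only. The edgeR adjusted p was 0.00019 in WT and 0.00041 in MyTrMaSt. The fitted log2 fold change in MyTrMaSt was 3.76 and depended on the PBS counts, with 5.01 without MyTrMaSt + PBS replicate 3, which held 3 of the 4. Between the CBE groups the log2 difference was -0.32 (SE 0.35, 95% confidence interval -1.06 to 0.42, adjusted p 1.0), so a 2-fold reduction lies within the interval.

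Serping1 encodes C1 inhibitor, the serpin that inactivates C1r and C1s. It stood at 13.5, 12.2 and 12.2 CPM with PBS in WT and at 48.6, 47.9 and 50.6 CPM with CBE. For MyTrMaSt the values were 12.4, 11.1 and 8.45 CPM with PBS and 16.4, 23.3, 23.1, 25.6 and 21.9 CPM with CBE. The WT libraries agree closely within each treatment, and the MyTrMaSt + CBE values lie between those of the PBS groups and WT + CBE without overlap. Serping1 was 3.91-fold higher with CBE in WT (log2 1.97, SE 0.21, edgeR adjusted p 2.27e-06) and 2.05-fold higher in MyTrMaSt (1.04, SE 0.19, adjusted p 0.00206). The second value is near the 2-fold threshold and fell below it without MyTrMaSt + PBS replicate 3 (0.91) or MyTrMaSt + CBE replicate 4 (0.98). After CBE it was 2.22-fold lower in MyTrMaSt (-1.15, SE 0.16, adjusted p 0.000214), or 45.0% of the WT mean. With PBS the difference was -0.22 (SE 0.22, adjusted p 0.616). The interaction was -0.93 (SE 0.28, unadjusted p 0.00390, adjusted p 0.202) and was not called.

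Marker genes of several cell types moved with the same groups. Of a list of 15 microglia genes, 14 were listed and tested, and their summed level was 472 to 545 CPM with PBS and 1810 to 2096 CPM with CBE in WT, and 426 to 464 CPM with PBS and 1326 to 1476 CPM with CBE in MyTrMaSt. CBE raised 8 of the 14 in each genotype (among them Aif1, Cx3cr1, Fcrls, Trem2, Tyrobp, Cd68 and Olfml3 in both). Of all tested genes, 5.2% were called higher in WT and 3.23% in MyTrMaSt. Between the CBE groups 1, Aif1, was called lower in MyTrMaSt (log2 -1.60, edgeR adjusted p 0.000364), against 1.93% of all tested genes. The homeostatic microglia genes P2ry12 and Tmem119 were counted in every library and were not called with CBE. P2ry12 had 2.71, 30.1 and 34.6 CPM with PBS and 22.1 to 27.7 CPM with CBE in WT, so its log2 change there (0.05, adjusted p 0.963) rests on the low value of WT + PBS replicate 1, and its change in MyTrMaSt was -0.49 (adjusted p 0.384). Tmem119 changed by 0.78 in WT (adjusted p 0.0762) and 0.28 in MyTrMaSt (adjusted p 0.524). The summed level of 10 astrocyte genes was 3043 to 3701 CPM with PBS and 5170 to 5342 CPM with CBE in WT, and 3626 to 4067 CPM with PBS and 4925 to 5431 CPM with CBE in MyTrMaSt. Of the 10 genes, 4 were called higher with CBE in WT and 2 in MyTrMaSt, against 5.2% and 3.23% of all tested genes. Of these Vim, an intermediate filament gene, was lower in MyTrMaSt between the CBE groups (-1.02, adjusted p 0.000247) and its interaction was called (-1.21, adjusted p 0.0199), while Gfap differed by -0.03 between the CBE groups (adjusted p 1.0). The summed level of 6 oligodendrocyte genes was 16661 to 19985 CPM with PBS and 10079 to 13102 CPM with CBE in WT, and 16485 to 19777 CPM with PBS and 12393 to 16616 CPM with CBE in MyTrMaSt. None of the 6 was called with CBE in either genotype (0 of 6, median log2 change -0.79 in WT and -0.31 in MyTrMaSt). The sums with CBE lay below those with PBS in WT and overlapped them in MyTrMaSt. A count of 0 of 6 is too small to set apart from the share of all tested genes called. The sums of 8 neuron genes and of 6 endothelium genes were 3867 to 4557 and 202 to 228 CPM with PBS and 3509 to 3750 and 168 to 179 CPM with CBE in WT. In MyTrMaSt these sums were 4531 to 5518 and 218 to 222 CPM with PBS and 3874 to 4405 and 147 to 201 CPM with CBE. Of these genes Slc17a7 was called lower in WT (-1.60, adjusted p 0.0212) and Tek in MyTrMaSt (-1.35, adjusted p 0.00442). Of 7 genes of blood monocytes, macrophages and neutrophils, 3 were listed (Mrc1, Cd163 and S100a9), with summed levels of 1.80 to 4.14 CPM with PBS and 4.69 to 9.31 CPM with CBE in WT, and 4.76 to 5.64 CPM with PBS and 6.01 to 12.6 CPM with CBE in MyTrMaSt, and Ccr2, Ly6c2, Ly6g and S100a8 were not listed. Of the lymphocyte genes 1 of 4 was listed, at no more than 1.75 CPM, and of the hemoglobin genes 0 of 4. In whole brain, fewer cells of a type and less RNA per cell cannot be told apart, and the part of these cell types in the levels of the 8 genes was not tested.

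Set against the mean log2(CPM + 0.5) of the 14 microglia genes in the same library (0.5 is a pseudocount), the genes gave different patterns. The ratio of C1qa to the microglia genes was 3.01 ± 0.76 on the log2 scale with PBS and 4.01 ± 0.06 with CBE in WT, and 2.27 ± 0.10 with PBS and 3.26 ± 0.19 with CBE in MyTrMaSt (SD, n = 3, 3, 3 and 5), so its mean was higher with CBE in both genotypes. The spread in WT + PBS comes from replicate 1, at 3.89, the other libraries being at 2.54 and 2.59. C4b gave -0.35 ± 1.03, 0.92 ± 0.20, -1.31 ± 0.09 and 0.25 ± 0.15 in the same order, also with higher means after CBE. In WT + PBS replicate 1 the ratio of C4b was 0.68, level with the lowest WT + CBE library (0.68), and that of C1qb was 3.35, within the WT + CBE range (3.32 to 3.54), while the other WT + PBS libraries stood lower for both genes. C3 gave -3.65 ± 0.39, -0.70 ± 0.17, -3.65 ± 0.70 and -3.60 ± 0.77, so that its ratio in MyTrMaSt + CBE was that of the PBS groups within their spread, and in WT + CBE alone it lay apart. The pseudocount raises the ratio of C3 at low counts, mostly in the PBS groups (2 to 9 counts a library), and so adds to this likeness. Serping1 gave -0.98 ± 0.30, -0.69 ± 0.14, -1.31 ± 0.25 and -1.50 ± 0.33, and its groups with and without CBE overlap in both genotypes. In WT the overlap comes from WT + PBS replicate 1, at -0.63, the other PBS libraries being at -1.15 and -1.16 and the CBE libraries at -0.86 to -0.60. C5ar1 gave -3.24 ± 0.31 with CBE in WT and -3.32 ± 0.57 with CBE in MyTrMaSt, and with PBS its 0 to 3 counts a library leave a ratio set largely by the pseudocount. In MyTrMaSt + CBE replicate 2 stood at -2.34 and the other 4 libraries at -3.73 to -3.32. These ratios depend on the genes chosen as the reference and were not tested.

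**Figure D3:**
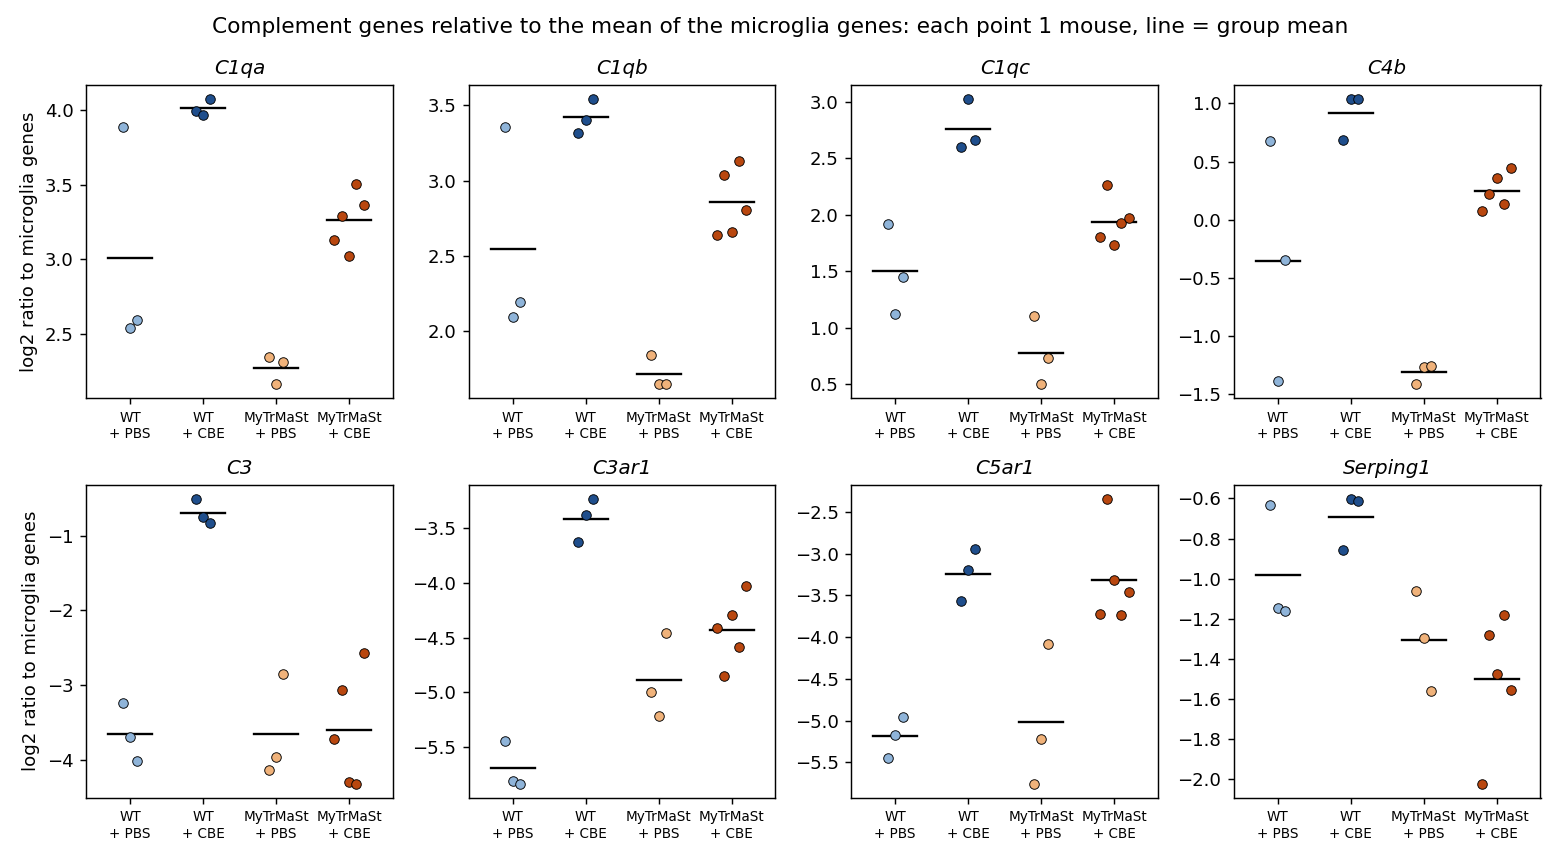
Log2 ratio of each of the 8 genes to the mean of the 14 microglia genes in the same library (vertical axis, own scale in each panel), with 1 point for each library and a line at the group mean, in the 4 groups. For C3 the mean is -0.70 in WT + CBE and between -3.65 and -3.60 in the other 3 groups, while the means of C1qa, C1qb, C1qc and C4b are higher with CBE in each genotype. The PBS points of C3ar1 and C5ar1 are set largely by the pseudocount, and those of C3 are raised by it.

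The genes whose log2 CPM followed each of the 8 most closely over the 14 libraries were ranked by Pearson r, which mostly reflects the 4 group means. For C1qa they were C1qb (r = 0.996), Cyba (0.987) and Snx20 (0.986), and for C1qb they were C1qa, Trem2 (0.987) and Grn (0.985). For C1qc they were Hcls1 (0.988), Grn (0.988) and Fcer1g (0.987), and for C4b 1700003F12Rik (0.986), C1qb (0.983) and Cyba (0.983). Among those closest to C3 were Parp12 (0.972) and A630001G21Rik (0.947). For C3ar1 they were Cd302 (0.972), Srgn (0.970) and Ctsl (0.967), for C5ar1 A2m (0.970), Phyhd1 (0.969) and Adam8 (0.969), and for Serping1 Tspo (0.984), Csf2rb (0.970) and Icam1 (0.969).

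The rest of the complement system was read from a list of 56 other symbols, alternative names included, of which 23 were listed and 17 tested. In WT, CBE raised 6 of the 17 (C1ra, C2, Cfb, Itgam, Itgax and Itgb2), against 5.2% of all tested genes, and lowered 0. In MyTrMaSt it raised 2, Itgax and Itgb2, against 3.23% of all tested genes, and lowered 0. Between the CBE groups 5 of the 17 were lower in MyTrMaSt (C1ra, C2, Cfb, Itgax and Itgb2), against 1.93% of all tested genes, and between the PBS groups 1, Cd59a, was higher, where 0.0337% of all tested genes were. The median log2 fold change of the 17 was 0.57 in WT, 0.09 in MyTrMaSt and -0.37 between the CBE groups. Of the genes called, C1ra, C2 and Cfb had 10 counts or fewer in every library outside WT + CBE, and Itgax 1 or fewer in every PBS library, so they passed the filter through the groups where they are high. These counts and medians describe the 17 and are no support for a difference of the list.

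C1ra and C2, proteases between C1q and C3 in the classical pathway, were called higher with CBE in WT and were not called in MyTrMaSt. C1ra, which encodes the C1r protease, had 0.902, 1.11 and 0.422 CPM with PBS and 11.3, 9.39 and 7.83 CPM with CBE in WT, and 2.07, 0.528 and 2.82 CPM with PBS and 0.779, 1.50, 0.811, 0.985 and 1.17 CPM with CBE in MyTrMaSt. The WT + CBE libraries lie above all others, on 13 to 39 counts each, and the other 3 groups overlap. Its log2 fold change was 3.46 in WT (SE 0.49, edgeR adjusted p 8.10e-05), -0.67 in MyTrMaSt (adjusted p 0.467) and -3.14 between the CBE groups (adjusted p 3.87e-05), and its interaction of -4.13 (SE 0.74, adjusted p 0.0120) was the only one called among the 8 genes and these 17. That call was lost without MyTrMaSt + PBS replicate 1 (adjusted p 0.0591) or replicate 3 (0.130). C1ra has a close copy, C1rb, not listed, whose whole transcript is 97.98% identical over the aligned bases. Of the last 500 bases of the longest transcripts, however, only 182 align (179 identical). Reads of the copies may have been lost or assigned to C1ra, to an extent that is uncertain.

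C2, the protease that binds C4b, had 1.80, 1.11 and 3.37 CPM with PBS and 13.4, 9.39 and 7.83 CPM with CBE in WT, and 2.42, 2.64 and 0.704 CPM with PBS and 3.12, 1.13, 1.62, 2.46 and 1.96 CPM with CBE in MyTrMaSt. Here too only the WT + CBE libraries stand apart. The log2 fold change was 2.36 in WT (SE 0.45, edgeR adjusted p 0.00183), 0.04 in MyTrMaSt (adjusted p 0.973) and -2.34 between the CBE groups (adjusted p 0.000758). Its interaction of -2.32 (unadjusted p 0.00338, adjusted p 0.199) was not called. Without WT + PBS replicate 3, the highest of its group, the change in WT was 2.99, and without replicate 2, the lowest, it was 1.89. C1s1, the other protease of C1, had a log2 fold change of 1.67 in WT (SE 0.61, adjusted p 0.0916) and was not called.

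Cfb encodes factor B of the alternative pathway. It had 0, 0 and 2.11 CPM with PBS and 21.5, 16.9 and 20.5 CPM with CBE in WT, and 1.04, 0.264 and 0.352 CPM with PBS and 0.390, 0.376, 0.811, 0 and 1.96 CPM with CBE in MyTrMaSt. The WT + CBE libraries, with 34 to 74 counts each, stand apart from all others, which have 5 counts or fewer. In WT the log2 fold change was 4.70 (SE 0.63, edgeR adjusted p 4.09e-05), and without WT + PBS replicate 2 it was 3.78 and without replicate 3, the only one of that group with counts, 8.69. It was 0.44 in MyTrMaSt (adjusted p 0.823) and -4.66 between the CBE groups (adjusted p 7.17e-06), or -5.44 without MyTrMaSt + CBE replicate 5. Its interaction was -4.26 (SE 1.41, adjusted p 0.248) and was not called. Cfp, which encodes properdin of the same pathway, was not called (log2 -0.08 in WT, adjusted p 0.927, and -0.74 in MyTrMaSt, adjusted p 0.140). C2 and Cfb are neighbours on chromosome 17 and share exons with the annotated read-through gene Gm20547, and Zbtb12 overlaps C2 on the opposite strand, so reads could be shared among them.

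Of the integrin chains of CR3 and CR4, Itgb2 and Itgax rose in both genotypes. Itgb2, the shared beta chain, had 2.71, 4.42 and 8.44 CPM with PBS and 83.2, 84.9 and 72.3 CPM with CBE in WT, and 4.14, 7.93 and 7.75 CPM with PBS and 37.0, 36.1, 35.3, 33.0 and 52.1 CPM with CBE in MyTrMaSt. The MyTrMaSt + CBE libraries lie between the PBS groups and WT + CBE. Its log2 fold change was 3.86 in WT (edgeR adjusted p 6.21e-08), 2.53 in MyTrMaSt (adjusted p 5.50e-06) and -1.05 between the CBE groups (adjusted p 0.00461). Itgax, the alpha chain of CR4, had 1 count over the 3 libraries of each PBS group, 77 counts with CBE in WT and 56 with CBE in MyTrMaSt. Scaled, these are 75.6 times the PBS level in WT (95% exact counting interval 13.2 to 3025) and 43.4 times in MyTrMaSt (7.48 to 1745). Its log2 difference between the CBE groups was -1.18 (adjusted p 0.0443), a call lost when any 1 of the 3 WT + CBE libraries, any 1 of the 3 MyTrMaSt + PBS libraries or any of MyTrMaSt + CBE replicates 1, 3, 4 and 5 was left out (adjusted p 0.0561 to 0.487), by DESeq2 (0.0642) and with no filter on low counts (0.0554). Itgam, the alpha chain of CR3, had a log2 fold change of 1.97 in WT (adjusted p 2.69e-05) and 0.83 in MyTrMaSt (adjusted p 0.0256, below 2-fold). Gm49368, another annotated gene on the same strand, overlaps exons of Itgam. Cd93 and Colec11, a lectin of the pathway that starts at sugars, were not called in either genotype.

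**Figure D4:**
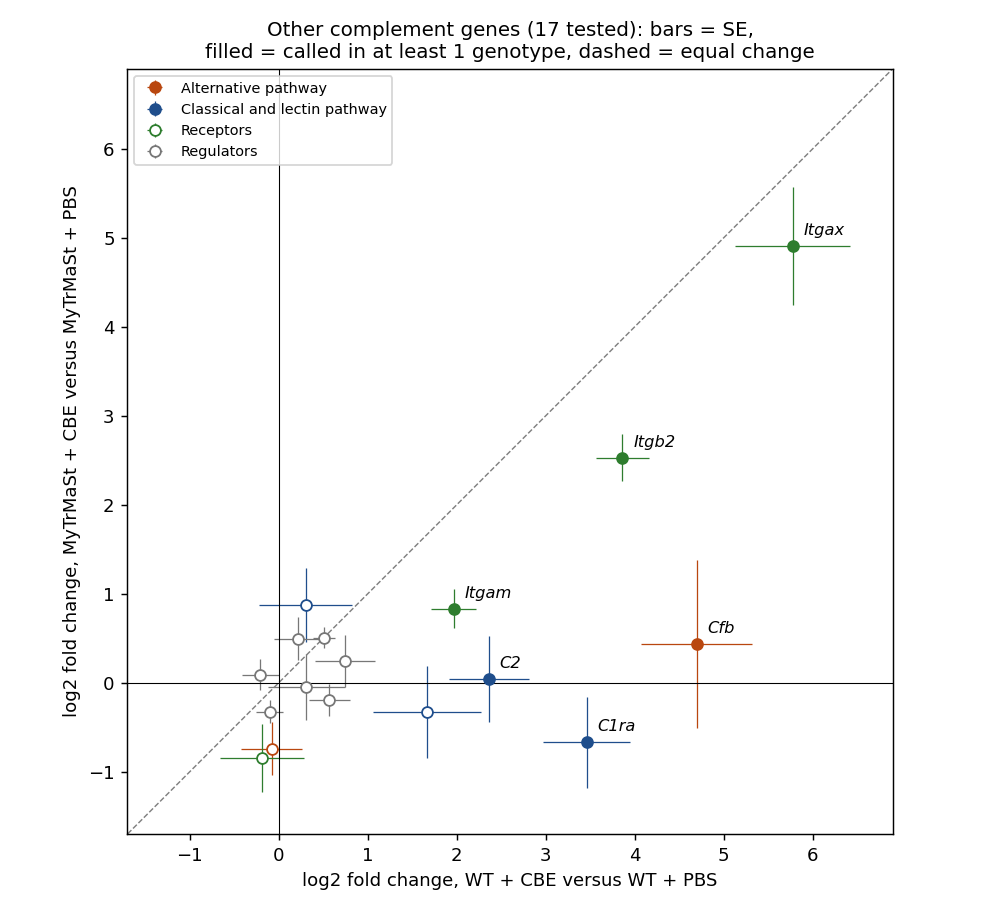
Log2 fold change with CBE in WT (horizontal axis) against that in MyTrMaSt (vertical axis) for the 17 other complement genes tested, with standard errors, coloured by class; filled points were called in at least 1 genotype and the dashed line marks equal change. C1ra, C2 and Cfb lie between 2.36 and 4.70 in WT and between -0.67 and 0.44 in MyTrMaSt, while Itgb2 and Itgax lie above 2.5 in both; the fitted value of Itgax rests on 1 count in each PBS group.

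The regulators of complement tested beside Serping1 were Cd59a, Clu, Cr1l, Csmd1, Csmd2, Susd4 and Vtn. With CBE 0 of 7 were called in either genotype, a count too small to set apart from the shares of all tested genes called higher (5.2% in WT and 3.23% in MyTrMaSt). Clu, the most counted of them, encodes clusterin and had a log2 fold change of 0.51 in each genotype (edgeR adjusted p 0.0119 in WT and 0.00873 in MyTrMaSt), below 2-fold. Cd59a, which encodes an inhibitor of the membrane attack complex, stood with PBS at 10.8, 20.2 and 16.0 CPM in WT and at 40.7, 49.9 and 38.0 CPM in MyTrMaSt. These groups do not overlap, and the log2 difference was 1.38 (SE 0.22, adjusted p 0.0114), a call lost without MyTrMaSt + PBS replicate 2 (adjusted p 0.0802), when only the PBS groups were fitted (0.537) and with the Xist level as a covariate (0.358). With CBE Cd59a had 22.1, 23.5 and 28.9 CPM in WT and 32.0 to 45.8 CPM in MyTrMaSt (0.61, adjusted p 0.161). Of C5 and the terminal components, 1 gene, C8g, was listed, and it did not pass the filter. Fcna, C5ar2, Cd55 and Csmd3 were among the genes listed and not tested.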

How the data were processed

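Brain RNA of 14 mice was sequenced by MARSseq, which counts 3′ ends. The authors deposited raw counts per gene, and the submitters' processing notes name cutadapt, HTSeq and the mouse build mm10. Use of strand or molecular identifiers in counting is not given in the sources used here. The authors' normalized values and their table of fold changes and p-values were not used. The table lists 13866 genes, each with at least 6 counts in some library. Groups came from the labels.

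Genes were kept by edgeR's filterByExpr (minimum count 10; 11852 genes), scaled by TMM, and fitted in 1 quasi-likelihood model of 4 group means on 14 libraries (edgeR 4.0.16, R 4.3.3). A gene was called at a Benjamini-Hochberg adjusted p below 0.05 and 2-fold, the study's thresholds, and an interaction at adjusted p below 0.05. SE is the log2 fold change over the root of F. Exact binomial intervals (95%) and the floor of 3 counts per group cover counting error only. Scripts were tested on simulated counts. DESeq2 1.42.0, limma-voom (limma 3.58.1), 7 further alternatives and leaving out each library were tried. Named were the 8 genes, the 3 genes closest to each by Pearson r and the other complement genes called in any comparison; a few genes are not reported here. Other named genes, among them C1s1, Cfp, Clu and the marker genes, were picked after their values were seen. The members and lists were chosen with earlier results of these data known. Library totals are given with the results.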

Additional observations from a re-analysis of the deposited data

Results flagged for a closer look

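C1ra, which encodes the C1r protease, was called for the interaction of genotype and CBE. It passed the filter through WT + CBE, the group where it is high, so the call is no independent support for a difference. The interaction was -4.13 on the log2 scale (SE 0.74, 95% confidence interval -5.69 to -2.56, edgeR adjusted p 0.0120), with 72 against 6 counts in WT and 13 against 16 counts in MyTrMaSt. It was not called without MyTrMaSt + PBS replicate 1 (-3.99, adjusted p 0.0591), without MyTrMaSt + PBS replicate 3 (-3.65, adjusted p 0.130), with the Xist level as a covariate (-4.06, adjusted p 0.109) or with the replicate number as a block (-4.08, adjusted p 0.120).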

How the results depend on the processing

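Of 1227 values of single genes under other settings, 1169 kept their direction and their side of the threshold, 37 lost it, 11 gained it and 10 reversed, none of which was called. The cause of the changes was not tested. With at least 10 counts in every library, C3, C3ar1 and C5ar1 were not tested, so 5 members were called in WT, and over all genes 261 were called in WT, 166 in MyTrMaSt, 47 between the CBE groups, 11 between the PBS groups and 18 for the interaction. Fitting only the groups compared called 471 genes in WT and 4 with PBS (there is no interaction value), and dropping the fold threshold called 1255 in WT and 919 in MyTrMaSt. DESeq2 called 115 genes with PBS and, for the interaction, 133 genes and 1 member, C3. With the Xist covariate 3 genes were called with PBS and 9 for the interaction. Leaving out each library gave 5 to 303 genes and 0 to 1 members with PBS (1, C4b, without WT + PBS replicate 2), and 24 to 105 genes and 0 to 2 members for the interaction (2, C1qa and C3, without WT + PBS replicate 1). It gave 8 members in WT, 6 to 8 in MyTrMaSt and 4 to 6 between the CBE groups.

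Under the Xist covariate, the values of C5ar1 (-0.081) and C3 (-0.28) with PBS and the interaction of C4b (0.055) reversed, and C5ar1 with PBS reversed by limma-voom (-0.16). With 1 library left out, values that reversed ranged from -0.36 to 0.45 for C3 and from -0.74 to 1.0 for C5ar1 with PBS, and for the interaction from -0.43 to 0.059 for C1qb, from -0.47 to 0.35 for C4b and from -1.32 to 0.41 for C5ar1. They turned without WT + PBS replicate 2 (C1qb 0.059 and C4b 0.35), without WT + PBS replicate 3 (C1qb 0.0089) or without MyTrMaSt + PBS replicate 3 (C3 and C5ar1).

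Replicate numbers are shared between groups, but same-numbered libraries did not deviate together (Pearson r -0.17 to 0.16 over 18 pairs, 3 of them over 0.1). With the number as a block, 8 members were called in WT, 5 in MyTrMaSt, 4 between the CBE groups, 0 with PBS and 0 for the interaction. The calls lost were C3ar1 (adjusted p 0.0631) and Serping1 (log2 0.97, below 2-fold) in MyTrMaSt, and C3ar1 (0.0746), C4b (0.0750) and, of the other genes, Itgax (0.389) between the CBE groups. Over all genes the block gave 292 in MyTrMaSt, 7 with PBS and 32 for the interaction.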
